A study of Mus musculus with 9 samples.

Results

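The libraries described here are the 3 Vehicle libraries of a series of 9 polyA-selected mouse RNA-seq libraries, that is, the cells that received no extracellular vesicles. They were chosen by their labels alone, and all 24318 genes of the deposited table are covered. The series holds 3 groups of 3 libraries: Vehicle, and cells given brain-derived extracellular vesicles named CON-BDEV or SE-BDEV. The vesicle groups were not used here, and no group was compared with another. The design text names BV2, a microglial line immortalised with a retrovirus that carries oncogenes, but N2a, a neuroblastoma line, is the cell line given in the label of each library. The labels do not say what the vehicle was, how long the cells were kept in it, or whether the replicates were separate cultures, so the spread given below is that between libraries and may be technical.

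Microglia are the resident macrophages of the brain. They arise from yolk sac progenitors, depend on signalling through the receptor CSF1R, clear debris and dying cells through phagocytosis and lysosomal digestion, and sense damage through Toll-like and purinergic receptors. In healthy tissue, signals such as TGF-beta maintain a homeostatic programme that cultured microglia and microglial lines largely lose, and around plaques or degenerating neurons microglia take up a disease-associated programme rich in lysosomal and lipid-handling genes.

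Levels are in FPKM, that is, fragments counted per kilobase of transcript and corrected for library size, which can be compared between genes because transcript length is divided out. A gene is called detected where its mean over the 3 libraries was at least 1 FPKM, and means are given ± SD with n = 3. By that measure 10539 genes (43.3%) were detected, the single libraries holding 10528 to 10561, and 10414 genes reached 1 FPKM in all 3. A further 9609 genes were listed at 0 in every library, which in such a table can also be a failed estimate and is not read here as absence. Hmgcs1, an early enzyme of cholesterol synthesis, was among them although the later enzymes Fdps and Sqle had 441 and 97.6 FPKM. The estimated depth was 31300000 to 33500000 fragments a library. At that depth, 62.7 to 67.1 fragments stood behind 1 FPKM in a transcript of 2 kb, and a count of 3 fragments, the least taken here as a signal, came to 0.0447 to 0.0479 FPKM. These depths rest on 37 to 41 long genes with very low values and cover counting error only.

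The transcriptome was led by iron storage, secreted matrix and lysosomal genes beside the translation machinery. The highest 10 genes held 9.80%, 9.56% and 9.53% of the summed FPKM of replicates 1, 2 and 3, and 292, 299 and 298 genes held 50%. The 100 genes at or above 1000 FPKM held 34.4% of the sum, the 856 between 100 and 1000 FPKM 32.9%, and the 3713 between 1 and 10 FPKM 2.98%. Of the 20 highest genes, clone-named entries passed over, 11 encoded ribosomal proteins.

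Fth1, the heavy chain of the iron store ferritin (mm9 chr19:10055090-10059601), was highest, at 14537, 13513 and 13082 FPKM in replicates 1, 2 and 3. Ftl1, the ferritin light chain (mm9 chr7:52713314-52715256), followed at 12600, 12374 and 12072 FPKM. In both, replicate 1 was highest and replicate 3 lowest, and together the 2 chains took 4.34%, 4.23% and 4.03% of the summed FPKM. The authors' deposited table marks the Cuffdiff comparison of both genes as failed for too many fragments, so their levels carry that mark. Spp1, which encodes the secreted matrix protein and cytokine osteopontin (mm9 chr5:104864130-104870072), came next at 6562, 6122 and 6524 FPKM, a coefficient of variation (CV, the SD as a percentage of the mean) of 3.81%. Eef1a1, the translation factor that delivers aminoacyl-tRNA to the ribosome, stood at 6230 ± 53.0 FPKM.

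Among the other leading genes, Ctsk, the cysteine protease cathepsin K best known from bone-resorbing osteoclasts (mm9 chr3:95303132-95313309), was listed at 3051, 3108 and 3176 FPKM. Apoe, the lipid carrier apolipoprotein E (mm9 chr7:20281593-20284537), had 3059, 2959 and 2893 FPKM. Gpnmb, a lysosomal membrane glycoprotein of phagocytes (mm9 chr6:48986517-49008181), had 2275, 2249 and 2230 FPKM, rank 24 of all genes. For Spp1, Ctsk, Apoe and Gpnmb the highest library exceeded the lowest by no more than the few percent that these values show, so their place among the leading genes did not rest on 1 library. Further genes of the first 20 outside the ribosome included Ppia (3015 ± 27.4 FPKM), a protein-folding isomerase, and Ptma, a small chromatin protein. Cytosolic ribosomal proteins as a list were all detected (76 of 76), with a median of 1433 FPKM against 0.110 FPKM over all genes, and made up 18.6% of the summed FPKM. The lowest of them, Rps27 at 7.93 FPKM, shares its locus with Rps27rt, a near copy listed at 3809 FPKM and chosen after its values were seen. How fragments were divided between such a pair cannot be told from the table.

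**Figure D1:**
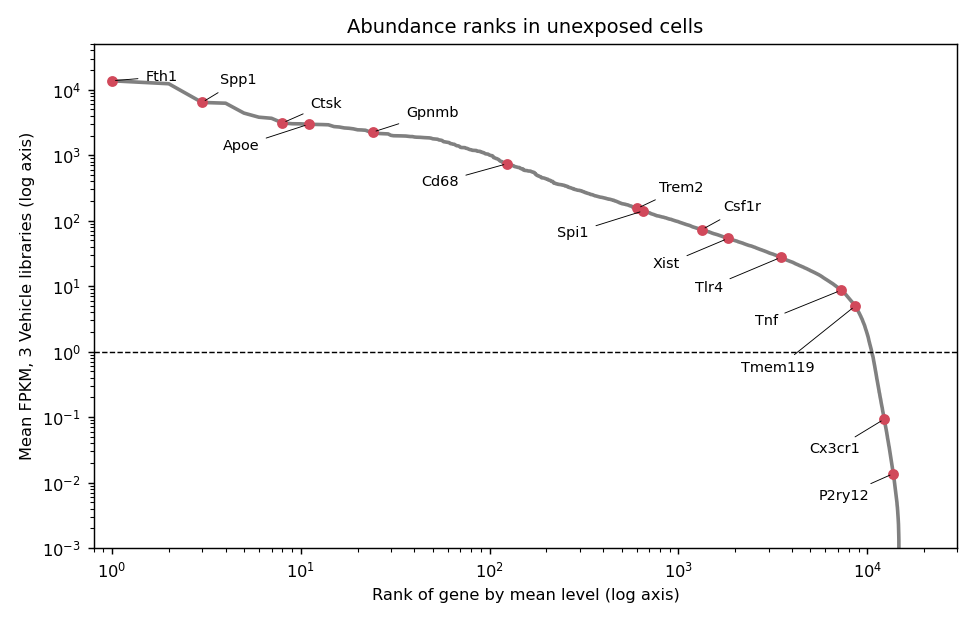
Mean FPKM of each gene over the 3 Vehicle libraries (log axis, lower end not drawn) against its rank (log axis), with the threshold of 1 FPKM as a broken line. Ferritin, Spp1, Ctsk, Apoe and Gpnmb lie in the first 24 ranks, Spi1 and Csf1r at 142 and 73.1 FPKM, and Cx3cr1 and P2ry12 at 0.0933 and 0.0137 FPKM.

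Promoters of detected genes held more CG dinucleotides than those of genes listed at 0, which did not hold for the core microglia and macrophage list. RefSeq promoter windows (GRCm38.p6, 250 bases before to 50 after each annotated start) were matched by symbol for 17185 genes with 20747 windows. The median ratio of observed to expected CG dinucleotides was 0.240 in windows of genes listed at 0, 0.412 above 0 and under 1 FPKM, 0.727 from 1 to 10 FPKM, 0.794 from 10 to 100 FPKM and 0.827 at or above 100 FPKM. The 24 windows of core microglia and macrophage genes came from 21 of the 30 genes and had a median of 0.244. That is close to the median of genes listed at 0, though each of the 21 genes was detected. It was lower in windows of complement (0.143), inflammasome (0.165) and tissue macrophage and monocyte genes (0.167), so a low ratio was not particular to the core list. The median was 0.379 for disease-associated microglia genes, 0.735 for myeloid transcription factors and 0.878 for cytosolic ribosomal protein genes. The letters TATAAA, on either strand, were in 21.1% of windows of genes listed at 0, in 9.5% at or above 100 FPKM and in 12.1% of all windows. The 150 bases before the start are printed for 3 leading myeloid genes and a leading ribosomal gene, with each CG in capitals; Spp1 is shown for 1 of its 2 windows. They lie at chr5:104434961-104435110 (plus strand), chr6:49036368-49036517 (plus strand), chr3:95499060-95499209 (plus strand) and chr2:39005132-39005281 (minus strand) of GRCm38.p6.
Spp1: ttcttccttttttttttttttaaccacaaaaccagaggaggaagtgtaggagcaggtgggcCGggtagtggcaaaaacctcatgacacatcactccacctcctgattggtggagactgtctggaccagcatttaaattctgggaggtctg
Gpnmb: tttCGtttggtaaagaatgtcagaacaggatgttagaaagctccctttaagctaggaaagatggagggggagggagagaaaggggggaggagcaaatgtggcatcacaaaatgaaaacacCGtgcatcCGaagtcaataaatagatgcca
Ctsk: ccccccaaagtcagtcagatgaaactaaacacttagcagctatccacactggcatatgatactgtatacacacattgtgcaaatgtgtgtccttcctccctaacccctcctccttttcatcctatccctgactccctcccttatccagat
Rpl35: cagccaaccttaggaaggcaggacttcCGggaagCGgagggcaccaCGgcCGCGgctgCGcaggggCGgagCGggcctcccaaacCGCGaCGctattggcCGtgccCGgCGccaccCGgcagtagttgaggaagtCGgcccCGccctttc
The stretches hold 1, 3, 0 and 17 CG in this order, while the mean levels of the genes were 6403, 2251, 3112 and 4404 FPKM. CG content thus did not order these 4 genes by level.

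The libraries carried a myeloid profile. Of 30 core microglia and macrophage genes, 29 were detected with a median of 55.2 FPKM, against 43.3% and 0.110 FPKM over all genes, and 12 reached 100 FPKM. Lyz2, the bactericidal enzyme lysozyme M, stood at 595, 547 and 616 FPKM. Lgals3, the lectin galectin-3, had 572 ± 10.6 FPKM, and Fcer1g, the signalling chain shared by Fc receptors, 398, 349 and 344 FPKM, with replicate 1 above the other two. Adgre1, which encodes the macrophage antigen F4/80, had 75.4 FPKM, Ptprc, the leukocyte phosphatase CD45, 61.0 FPKM, and Itgam, the CD11b chain of the complement receptor CR3, 45.2 FPKM. Aif1, which encodes the widely stained microglial protein IBA1, was low among them at 5.42 FPKM. C1qa, a chain of the complement trigger C1q, was the member below 1 FPKM, at 0.495 FPKM.

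Homeostatic microglia genes were uneven. Of 20, 11 were detected (55%, against 43.3% of all genes) and 4 were listed at 0, with a median of 1.3 FPKM. The high members were genes that other cells use as well: Cst3, the protease inhibitor cystatin C, at 621 ± 10.3 FPKM, and Bin1, a membrane-bending protein, at 50.9 ± 0.325 FPKM. Tmem119, a surface protein used to mark resident microglia, had 5.04, 4.44 and 5.46 FPKM. Cx3cr1, the receptor for the neuronal chemokine fractalkine, had 0.0983, 0.129 and 0.0523 FPKM, and P2ry12, the ADP receptor of resting microglia, averaged 0.0137 FPKM, under the level of 3 fragments in 2 kb. Gpr34, a lysophospholipid receptor, had 0.132 FPKM. Sall1, a transcription factor of microglial identity, and Siglech, Fcrls and Sparc were listed at 0. Other receptors of the list were detected, namely Tgfbr1 (8.17 FPKM), P2ry6 (4.63 FPKM), Csf3r (1.76 FPKM) and P2ry13 (1.01 FPKM).

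Genes of tissue macrophages and monocytes were detected in 6 of 16 (37.5%, against 43.3% of all genes), median 0.0812 FPKM. Pf4, a chemokine abundant in border macrophages and platelets, had 128, 113 and 114 FPKM, and Mrc1, the mannose receptor CD206, 107, 113 and 121 FPKM. Siglec1, a sialic acid receptor of tissue macrophages, had 11.3 ± 0.239 FPKM. Cd163, a haemoglobin scavenger receptor, Timd4, a receptor for dying cells, and the dendritic gene Cd209a were listed at 0, and Ccr2, the receptor that recruits blood monocytes, averaged 0.0145 FPKM.

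Markers of the other named line and of other cell types were mostly under 1 FPKM. Of 32 neuroblastoma and neuronal genes, 6 were detected and 17 were listed at 0, including the adrenergic enzymes Th and Dbh and the oncogene Mycn, and the median was 0 FPKM. The detected members were steady between libraries but uneven in level. Nefh, the heavy neurofilament chain, had 82.9, 78.5 and 84.8 FPKM, while its partner chains Nefl and Nefm averaged 0.00544 FPKM and 0. Uchl1, a ubiquitin hydrolase abundant in neurons, had 76.6, 72.5 and 72.1 FPKM, Ina, the internexin filament protein, 10.7 ± 0.358 FPKM, and Syn1, a synaptic vesicle protein, 4.88 ± 0.0656 FPKM. Nefh, Uchl1, Ina and Syn1 each share a locus with another entry, and how fragments were divided there cannot be told. The detected members with a locus of their own, Elavl4 and Gata3, had 3.41 and 2.90 FPKM. The summed level of the whole neuronal list was 181, 174 and 180 FPKM in replicates 1, 2 and 3, against 5257, 5102 and 5243 FPKM for the core microglial list. In bulk RNA a few cells with much of a transcript and many cells with little of it cannot be told apart.

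Among the glial and vascular lists, 1 of 12 astrocyte genes was detected (Aldoc, an aldolase, at 44.4 FPKM), with the defining markers Gfap, Aqp4 and Gja1 listed at 0. For oligodendrocytes the count was 2 of 12, with Cnp, a myelin-associated phosphodiesterase, at 11.9 FPKM and Mbp at 1.23 FPKM, and with Mog, Mag, Olig1 and Olig2 at 0. Endothelial, pericyte and red cell genes gave 1 of 12: Flt1, a VEGF receptor that macrophages also express, had 35.2, 37.3 and 40.3 FPKM, whereas Cldn5, Hba-a1 and Hbb-b1 were at 0 and Pecam1 averaged 0.0307 FPKM. Of lymphocyte and neutrophil genes 1 of 12 was detected (S100a8, 6.03 FPKM) and of fibroblast and smooth muscle genes 0 of 10. The markers therefore went with the design text's microglial line and against the cell line label.

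**Figure D2:**
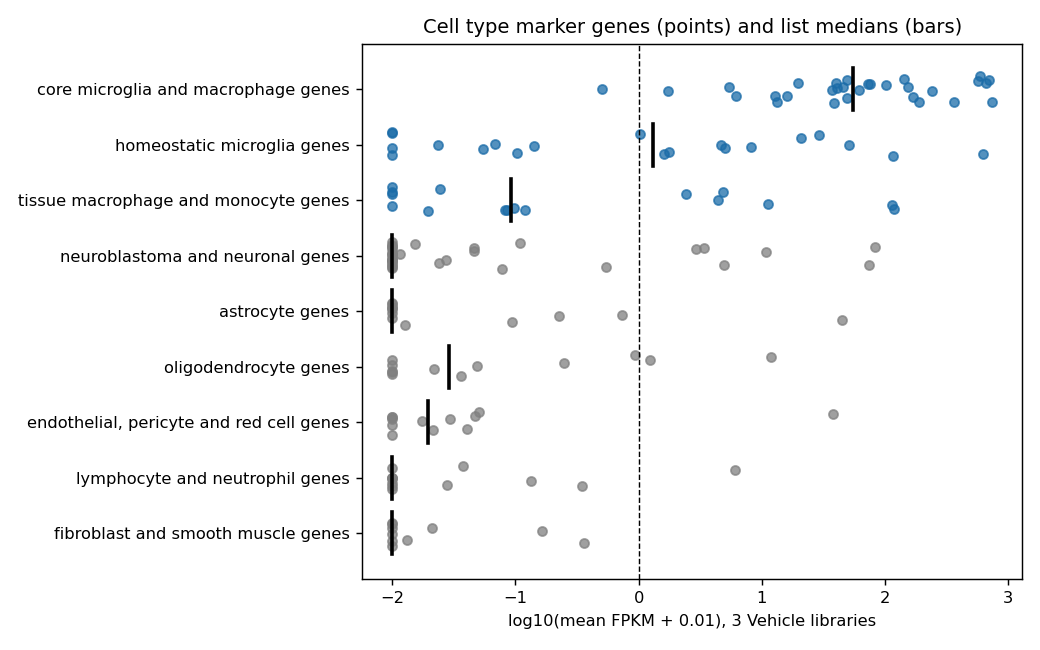
Each point is a marker gene at its mean level over the 3 Vehicle libraries, as log10(FPKM + 0.01), by cell type list; bars are list medians and the broken line marks 1 FPKM. The core microglial list has its median at 55.2 FPKM, while the neuronal, astrocyte, lymphocyte and fibroblast lists have medians of 0.

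Transcription factors that build myeloid cells were nearly complete: 28 of 32 were detected, with a median of 13 FPKM. Spi1, which encodes PU.1, the factor that sets macrophage identity, led at 150, 140 and 135 FPKM. Bhlhe40 and Bhlhe41, repressors that hold the macrophage state, had 71.9 ± 1.82 and 24.5 ± 0.328 FPKM. The interferon regulatory factors Irf5 and Irf8 had 53.3 ± 0.830 and 47.9 ± 1.43 FPKM, while Irf4 had 3.96 FPKM.

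Cebpb and Cebpa, factors of granulocyte and macrophage development, stood at 23.1 ± 1.92 and 21.1 ± 0.530 FPKM, and Cebpd at 1.5 FPKM. Mef2c, linked to restraint of microglial inflammation, had 20.8 ± 1.24 FPKM and Mef2a 13.2 ± 0.342 FPKM. Id2 (40.0 FPKM), Nr4a1 (18.3 FPKM), Smad4 (16.7 FPKM), Fli1 (16.2 FPKM), Ikzf1 (16.1 FPKM), Etv6 (15.5 FPKM), Tfec (12.7 FPKM), Klf6 (12.6 FPKM) and Klf4 (10.5 FPKM) formed a middle group; within it each gene apart from Id2 and Klf4 overlapped with a neighbour over the libraries. Mitf (8.17 FPKM), a relative of Tfec that drives lysosomal and melanocyte genes, Runx1 (7.15 FPKM), Batf3 (5.47 FPKM), Smad3 (4.93 FPKM), Klf2 (2.89 FPKM) and Egr2 (1.71 FPKM) were lower. Under 1 FPKM were Egr1, an immediate early gene, at 0.284 FPKM, Maf at 0.0172 FPKM, Gfi1, listed above 0 in 1 library, and Sall1 at 0. Where Sall1 was listed at 0, its relative Sall3 had 4.50, 4.67 and 4.48 FPKM. Of 15 HOXA genes and cofactors, 6 were detected (40%, near the 43.3% of all genes). Among them were Hoxa7 at 5.98 ± 0.458 FPKM, and the cofactors Pbx3 at 4.45 FPKM and Meis1 at 3.10 FPKM. Hoxa9, active in myeloid progenitors and leukaemia, averaged 0.0574 FPKM.

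Receptors for survival and inflammatory signals were broadly present. Of 24 cytokine receptor genes, 20 were detected, median 14.5 FPKM. Csf1r, the receptor on which microglia depend, had 70.0, 71.5 and 77.7 FPKM, and Csf2rb, the common beta chain for GM-CSF, IL-3 and IL-5, 72.3 ± 2.17 FPKM. The ligand Csf1 was itself present at 76.5 ± 3.18 FPKM, whereas Il34, the other ligand of the receptor, had 0.283 FPKM. For TGF-beta the ligand Tgfb1 had 71.0 ± 2.78 FPKM and the receptor genes Tgfbr2 and Tgfbr1 9.12 and 8.17 FPKM. Interferon receptors were led by Ifngr2 (64.3 ± 0.720 FPKM) and Ifnar2 (38.7 ± 3.35 FPKM). Il1r1, the signalling receptor for interleukin-1, was at 0.843 FPKM, and Kit, the receptor of early progenitors and mast cells, was listed at 0.

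Of 24 Toll-like receptors and adaptors, 19 were detected, median 9.72 FPKM. Unc93b1, the chaperone that brings nucleic acid-sensing receptors to endosomes, led at 80.1 ± 1.39 FPKM, followed by Myd88, the main adaptor, at 42.1 ± 1.71 FPKM. For bacterial lipopolysaccharide, Tlr4 had 25.1, 28.9 and 28.7 FPKM, the co-receptor Cd14 37.2 ± 1.57 FPKM, and the accessory protein Ly96 (MD-2) 4.47, 4.42 and 6.17 FPKM, lowest of these 3 components. The lipopeptide receptors were Tlr1 (14.5 FPKM), Tlr2 (13.7 FPKM) and Tlr6 (4.30 FPKM), of which Tlr1 and Tlr2 overlapped over the libraries. Of the endosomal receptors, Tlr13, which senses bacterial ribosomal RNA, and Tlr7, for single-stranded RNA, had 20.3 ± 0.737 and 20.2 ± 1.28 FPKM and did not differ beyond their spread. Tlr9, for bacterial DNA, had 6.41 ± 0.368 FPKM, and Tlr3, for double-stranded RNA, 0.779, 0.582 and 0.769 FPKM. Tlr5 (0.723 FPKM), Tlr8 (0.104 FPKM), Tlr12 (0.0633 FPKM) and Tlr11 (listed at 0) were also under 1 FPKM. Downstream, Irak1 had 36.3 FPKM, Ticam1, the adaptor TRIF, 14 FPKM, Irak2 11.7 FPKM, Irak4 10.1 FPKM, Traf6 9.38 FPKM, Ticam2 6.48 FPKM, Tirap 5.17 FPKM and the brake Irak3 2.50 FPKM.

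**Figure D3:**
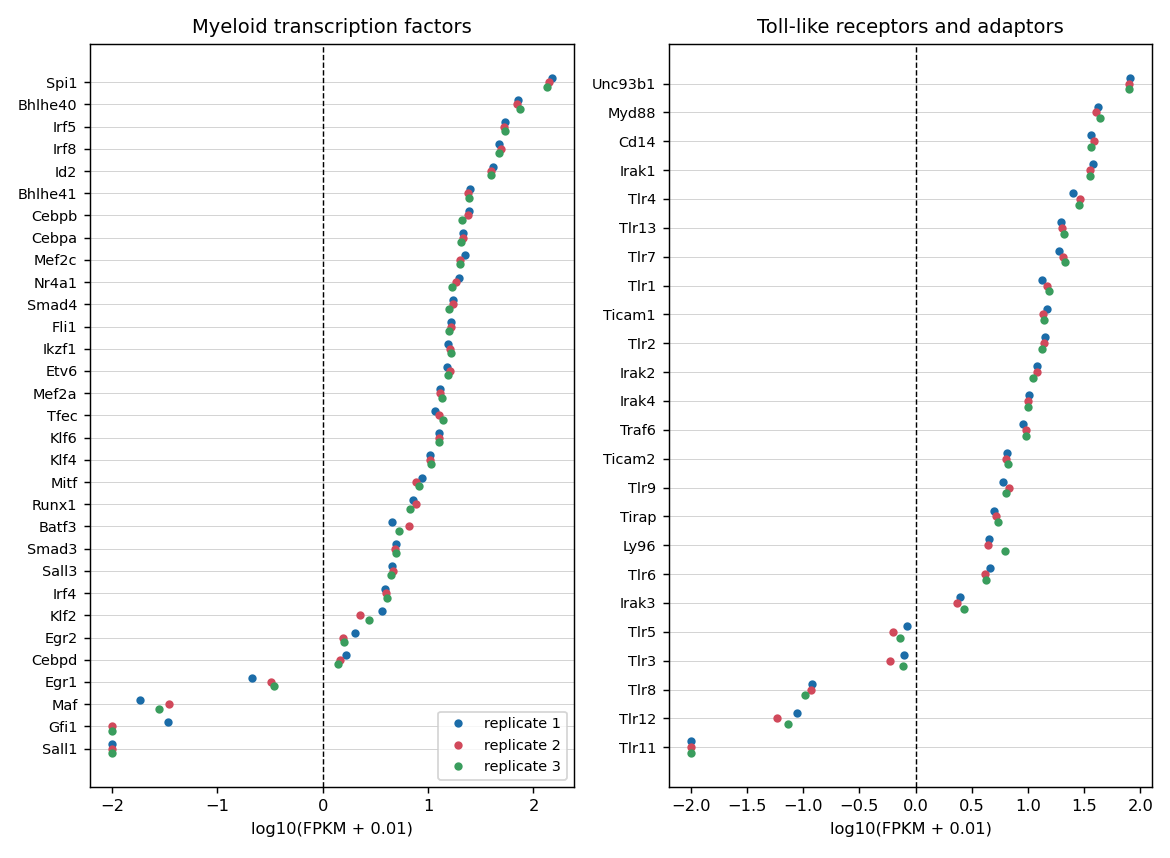
Myeloid transcription factors named in the text (left) and Toll-like receptors and adaptors (right) in each Vehicle library, as log10(FPKM + 0.01), ordered by mean; colours are replicates and the broken line marks 1 FPKM. The 3 points of a gene lie close together above 1 FPKM, from Spi1 at 142 FPKM down to Cebpd at 1.5 FPKM on the left.

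Purinergic genes, which sense ATP and its products from damaged cells, were detected in 9 of 19, median 0.820 FPKM. That share, 47.4%, is near the 43.3% of all genes. The ATP-gated channels P2rx4 and P2rx7 led at 21.7 ± 0.685 and 15.5 ± 0.503 FPKM, and their values did not overlap. Entpd1, the surface enzyme CD39 that breaks ATP down, had 13 ± 0.856 FPKM, while Nt5e (CD73), which makes adenosine in the next step, averaged 0.00567 FPKM. The G protein-coupled receptors were P2ry2 (7.57 FPKM), P2ry6 (4.63 FPKM), a trigger of phagocytosis, P2ry1 (4.07 FPKM) and P2ry13 (1.01 FPKM), with P2ry14 listed at 0. For adenosine, Adora2b had 2.55 FPKM, Adora3 1.09 FPKM, Adora2a 0.633 FPKM and Adora1 0.00455 FPKM. Of the other channels, P2rx3 had 0.820 FPKM, P2rx6 0.0831 FPKM and P2rx1 0.0360 FPKM, and P2rx2 and P2rx5 were listed at 0.

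Of 24 transmitter receptors and ion channels, 11 were detected (45.8%, near the 43.3% of all genes). Clic1, a chloride channel protein of activated microglia, had 315 ± 12.5 FPKM, Trpm7, a channel fused to a kinase, 36.2 ± 0.621 FPKM, and Trpv2 24.2 ± 0.45 FPKM. The potassium channels Kcnk6 and Kcnk13 (THIK-1, which sets microglial resting potential) had 12.3 and 7.65 FPKM. The glutamate receptor genes Gria1, Gria2, Grin1, Grin2a, Grin2b and Grm5 were listed at 0. Chemoattractant receptors were detected in 4 of 14, namely C3ar1 for complement C3a (27.1 ± 1.55 FPKM), Cxcr4 (17.1 ± 0.45 FPKM), Cxcr2 (2.88 FPKM) and C5ar1 (1.69 FPKM).

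Of 25 phagocytic and scavenger genes, 19 were detected, median 10.7 FPKM, and 4 were listed at 0. Mfge8, a secreted bridge between dying cells and integrins, led at 341, 336 and 335 FPKM, followed by the Fc receptor Fcgr3 at 184, 179 and 203 FPKM. Trem2, the lipid-sensing receptor of microglia, had 171, 148 and 144 FPKM, with replicate 1 highest, and its adaptor partner Tyrobp had 697 ± 5.30 FPKM. The receptors Lrp1 and Scarb1, which take up lipoproteins, had 73.9 ± 3.65 and 69.0 ± 0.735 FPKM. Of the TAM kinases, which recognise phosphatidylserine on dying cells, Mertk had 9.06 FPKM and Axl and Tyro3 were listed at 0. Gulp1 and Timd4 were listed at 0 as well.

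Lysosomal genes stood high. All 22 lysosomal enzymes and membrane proteins were detected, median 124 FPKM, and their CV was 0.359% to 5.96%. Psap, the precursor of the saposins that activate lipid breakdown, had 891 ± 27.5 FPKM, the membrane protein Lamp1 655 ± 21 FPKM, Lgmn, the asparagine endopeptidase, 509 ± 14.2 FPKM and Grn, progranulin, 492 ± 12.4 FPKM. The master regulator Tfeb was the lowest member at 10.1 FPKM, below its relative Tfe3 at 29.9 FPKM.

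Cathepsins are the proteases of the lysosome, and 10 of 14 were detected. Ctsk held 38.1%, 39.1% and 39.4% of their summed FPKM in replicates 1, 2 and 3, more than any other member. Ctsd, an aspartic protease, had 1569 ± 17.7 FPKM, Ctsz 1153 FPKM (CV 0.870%), Ctsl 743 ± 16.2 FPKM, Ctss, which macrophages use in antigen processing, 661 ± 11.0 FPKM, Ctsb 357 ± 6.54 FPKM and Ctsa 279 ± 5.03 FPKM. Each of these 7 lay outside the values of its neighbours in the order. Ctsc (68.2 FPKM) and Ctsf (57.9 FPKM) followed, with Ctso at 1.96 FPKM. Ctse (0.701 FPKM) and Ctsh (0.0707 FPKM) were under 1 FPKM, and Ctsg, of neutrophils, and Ctsw, of cytotoxic lymphocytes, were listed at 0.

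The letters CACGTG, an E-box that reads the same on both strands, were in 8.07% of all promoter windows, in 5 of 22 windows of the lysosomal list (22.7%) and in 4 of 11 windows of the cathepsins (36.4%). The share rose with level, from 5% in windows of genes listed at 0 to 13% at or above 100 FPKM. Lists varied, with 22.7% for unfolded protein and heat shock genes, 27.8% for transmitter receptors and ion channels and 0% for core microglia and macrophage genes. The share of the lysosomal list was thus not particular to it. Lamp1 is shown because its 100 bases before the start, at chr8:13159061-13159160 (plus strand) of GRCm38.p6, hold the letters 4 times, in capitals.
Lamp1: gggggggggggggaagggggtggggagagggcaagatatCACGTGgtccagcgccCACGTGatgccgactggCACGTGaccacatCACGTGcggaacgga
Within the lysosomal list the 5 genes with the letters (Gla, Glb1, Lamp1, Lgmn and Mcoln1) had a median of 68.4 FPKM and the 12 without them 223 FPKM, so holding the letters did not go with a higher level among these members.

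Disease-associated microglia genes were detected in 20 of 22, with a median of 292 FPKM. Beside Spp1, Apoe and Gpnmb, Fabp5, a fatty acid binding protein, had 674 ± 19 FPKM, the tetraspanins Cd63 and Cd9 574 ± 2.06 and 417 ± 4.94 FPKM, and Lpl, lipoprotein lipase, 227 ± 11.3 FPKM. Lower members were Itgax, the CD11c chain, at 85.3 ± 5.31 FPKM, Igf1 at 68.7 ± 1.18 FPKM, Cst7, cystatin F, at 62.0 FPKM and Clec7a, the glucan receptor dectin-1, at 21.7 ± 0.963 FPKM. The members not detected were Ccl6 (0.822 FPKM) and Axl. The list shares Spp1, Trem2, Tyrobp, Cd63 and cathepsins with the lists above, so it is not a separate measurement of them.

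Secreted inflammatory signals were selective. Of 31 cytokines and effectors, 18 were detected, and Spp1 made up most of their sum. Gdf15, a stress-induced member of the TGF-beta family, had 72.6, 55.7 and 61.9 FPKM, with replicate 1 highest. Arg1, the arginine-degrading enzyme of alternatively activated macrophages, had 19.4, 22.6 and 27.4 FPKM, whereas Nos2, which makes nitric oxide from the same substrate, averaged 0.231 FPKM. The acute phase protein Saa3 had 36.5 ± 2.41 FPKM and Vegfa 26.2 ± 0.739 FPKM. Of classical cytokines, Il1a had 10.8 FPKM, Tnf 8.63 FPKM, Osm 8.60 FPKM and Il1b 5.18 FPKM, while Il6, Il12a, Il12b and Ifnb1 were listed at 0 and Il10 averaged 0.00915 FPKM.

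Chemokine genes were detected in 9 of 24 (37.5%, against 43.3% of all genes), median 0.493 FPKM. Ccl3, which draws monocytes and T cells, had 210, 199 and 191 FPKM, and Ccl4, its neighbour and relative, 20.3, 22.0 and 21.1 FPKM. Ccl2, the main monocyte attractant, had 24.9, 24.2 and 29.3 FPKM and Ccl9 24.4 ± 0.768 FPKM, so that Ccl2 and Ccl9 did not differ beyond their spread. Ccl12 (2.57 FPKM), Ccl7 (1.23 FPKM), Ccl24 (1.16 FPKM) and Ccl5 (1.12 FPKM) were near the threshold. Cxcl14 (0.985 FPKM), Ccl6, Cxcl16 (0.759 FPKM), Cxcl10 (0.227 FPKM), Cx3cl1 (0.0602 FPKM), Ccl11 (0.0388 FPKM), Ccl22 (0.0255 FPKM) and Cxcl3 (0.0127 FPKM) were under it. Ccl8, Ccl17, Cxcl1, Cxcl2, Cxcl9, Cxcl11 and Cxcl12 were listed at 0.

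In the complement system 9 of 19 genes were detected (47.4%, near the 43.3% of all genes). The C1q chains were uneven: C1qb took 76.5%, 70.9% and 73.5% of their sum, with C1qc at 13.4 FPKM and C1qa at 0.495 FPKM, although the protein is built from equal numbers of the 3 chains. The central component C3 had 38.3 ± 2.25 FPKM and properdin (Cfp), which stabilises the alternative pathway, 33.5 ± 2.40 FPKM. Of 12 inflammasome genes 8 were detected, with the protease Casp1 at 41.0 ± 3.03 FPKM, the DNA sensor Aim2 at 36.3 ± 1.55 FPKM and the pore-forming Gsdmd at 31.7 ± 0.771 FPKM. Nlrp3, a sensor of membrane damage, had 5.57 ± 0.333 FPKM, while Pycard, the adaptor ASC that joins sensors to caspase-1, averaged 0.140 FPKM.

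For antigen presentation, the class I side was high and the class II side was split. B2m, the light chain of class I molecules, had 1236, 1124 and 1195 FPKM and the heavy chains H2-D1 and H2-K1 303 ± 12.3 and 153 ± 1.83 FPKM. On the class II side Cd74, the invariant chain, had 198, 195 and 206 FPKM, whereas H2-Aa averaged 0.0360 FPKM and H2-Ab1, H2-Eb1 and Ciita, the class II activator, were listed at 0. The chaperone gene H2-DMb1 had 14.8 FPKM and its partner H2-DMa 1.05 FPKM.

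Interferon response genes were detected in 12 of 20, median 2.03 FPKM, with 3 above 10 FPKM. Ifitm2, which blocks virus entry at endosomes, had 363, 332 and 358 FPKM, Bst2, the virus tether tetherin, 139 ± 1.42 FPKM and Ifitm3 31.5 ± 1.58 FPKM. Isg15, a ubiquitin-like modifier, had 2.05 FPKM and Irf7 0.886 FPKM, while Rsad2 and Ifit3, antiviral effectors, averaged 0.103 and 0.0508 FPKM. The letters GAAA, any 2 bases and GAAA again, on either strand, the core of the interferon-stimulated response element, were in 3.34% of all windows and in 11 of 18 windows of this list (61.1%). The 150 bases before the start are shown for the highest 2 and the lowest 2 genes with a match in them, with matches in capitals. They lie at chr7:140955962-140956111 (minus strand), chr8:71537473-71537622 (minus strand), chr12:26456453-26456602 (minus strand) and chr19:34583379-34583528 (plus strand) of GRCm38.p6.
Ifitm2: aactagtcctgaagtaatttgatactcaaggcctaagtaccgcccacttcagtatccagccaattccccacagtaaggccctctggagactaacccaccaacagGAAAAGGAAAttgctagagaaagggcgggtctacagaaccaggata
Bst2: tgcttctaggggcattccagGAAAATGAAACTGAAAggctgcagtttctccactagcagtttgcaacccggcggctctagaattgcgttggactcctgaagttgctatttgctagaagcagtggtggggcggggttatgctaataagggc
Rsad2: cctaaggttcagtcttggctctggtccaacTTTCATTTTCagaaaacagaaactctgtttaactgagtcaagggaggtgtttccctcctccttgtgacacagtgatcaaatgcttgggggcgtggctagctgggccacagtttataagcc
Ifit3: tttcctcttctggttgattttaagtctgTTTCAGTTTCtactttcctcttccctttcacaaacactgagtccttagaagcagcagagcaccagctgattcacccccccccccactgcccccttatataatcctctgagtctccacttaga
In Bst2, 2 matches overlap. All 4 stretches hold the letters while the levels run from 351 to 0.0508 FPKM. Over the list, 6 of the 11 genes with the letters were detected, and the median was 2.05 FPKM with them and 2.01 FPKM in the 5 genes without.

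Genes of cell division were detected in full. All 22 genes of G1/S and replication and all 22 of G2/M were detected, with medians of 57.9 and 67.4 FPKM. Pcna, the replication clamp, had 351 ± 12.6 FPKM, and the helicase subunits Mcm7 and Mcm6 167 ± 3.27 and 151 ± 5.20 FPKM. Ccnb1, the mitotic cyclin B1, had 176, 173 and 179 FPKM, Ube2c, which drives cyclin destruction, 148 ± 6.94 FPKM, Top2a, a DNA topoisomerase of chromosome condensation, 109 ± 2.54 FPKM, and the proliferation marker Mki67 85.1 ± 1.94 FPKM.

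G2/M genes are known to carry pairs of CCAAT boxes and a cell cycle homology region in their promoters. The letters CCAAT on either strand were in 37.9% of all windows and in 16 of 18 G2/M windows (88.9%), and TTTGAA on either strand in 15.4% and in 13 of 18 (72.2%). For the G1/S list these shares were 68.2% and 9.09%. The 100 bases before the start are shown for the 4 highest genes that hold both in that stretch, at chr2:164769829-164769928 (plus strand), chr4:118437344-118437443 (minus strand), chr11:99024190-99024289 (minus strand) and chr19:37376282-37376381 (plus strand) of GRCm38.p6, with both kinds of letters in capitals.
Ube2c: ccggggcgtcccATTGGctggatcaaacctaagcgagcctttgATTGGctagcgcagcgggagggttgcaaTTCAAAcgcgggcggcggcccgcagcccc
Cdc20: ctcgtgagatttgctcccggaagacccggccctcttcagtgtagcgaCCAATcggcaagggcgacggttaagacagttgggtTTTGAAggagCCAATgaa
Top2a: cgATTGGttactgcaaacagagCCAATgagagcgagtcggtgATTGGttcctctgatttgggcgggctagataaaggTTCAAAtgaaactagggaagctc
Kif11: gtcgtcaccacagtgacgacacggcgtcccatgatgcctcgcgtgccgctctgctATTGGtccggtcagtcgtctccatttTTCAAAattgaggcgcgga
The G2/M genes with TTTGAA had a median of 76.0 FPKM and the 5 without it 62.4 FPKM. Both subsets were detected throughout, and a match is a description of letters, not a site.

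**Figure D4:**
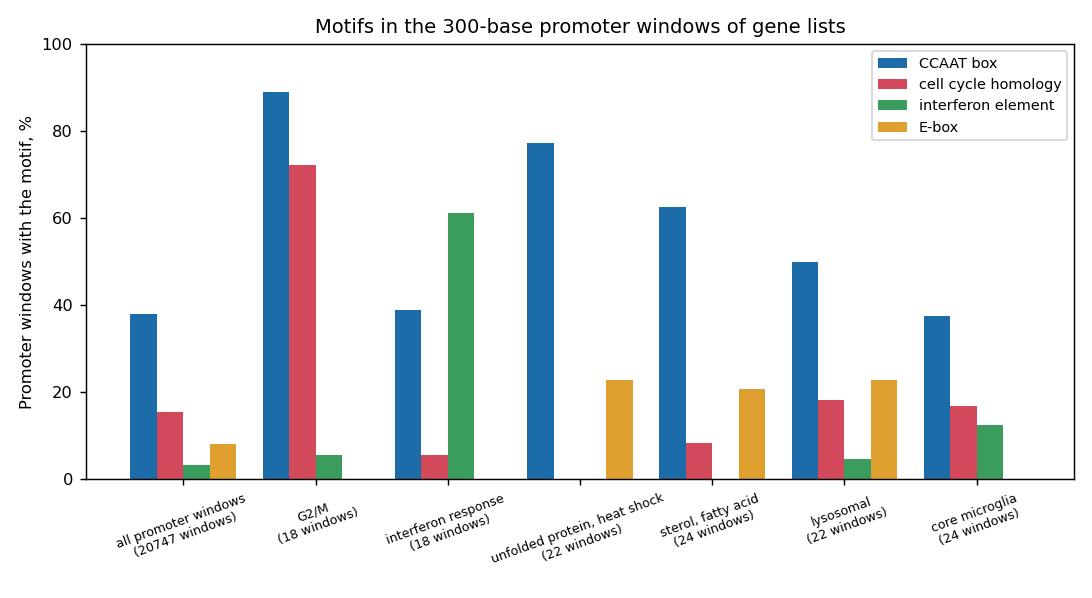
Share of 300-base promoter windows (percent, axis from 0) that hold each of 4 motifs, for all windows and for 6 gene lists, with the number of windows below each. The cell cycle homology letters are in 72.2% of G2/M windows against 15.4% of all windows, and the interferon element in 61.1% of interferon response windows against 3.34%.

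Among cell cycle regulators, oncogenes and survival genes, 28 of 34 were detected. Cdk4, the G1 kinase, had 294 ± 3.39 FPKM, and of its D-type cyclin partners Ccnd3 held 61.2 ± 0.192% of the family, Ccnd1 stood at 46.4 ± 1.83 FPKM and Ccnd2 averaged 0.0286 FPKM. The cell cycle inhibitor Cdkn1a (p21) had 140, 136 and 133 FPKM and Trp53, the p53 gene that activates it, 93.7 ± 1.29 FPKM. Cdkn2a and Cdkn2b, adjacent inhibitor genes, were both listed at 0, while Mtap, their neighbour on chromosome 4 and chosen after its values were seen, had 68.2, 66.1 and 71.8 FPKM. The mouse gene Myc had 0.485 FPKM and Mycn and Mycl were at 0. Transcripts of the viral oncogenes themselves were not analysed here. Mcl1, a survival factor of myeloid cells, had 230 ± 2.88 FPKM and Bcl2 4.65 FPKM.

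Energy genes showed strong choice of isoforms. In glycolysis 22 of 32 genes were detected, and no member lay between 1 and 10 FPKM. Hk3, the hexokinase of myeloid cells, took 59.3%, 58.5% and 56.5% of the hexokinase sum, ahead of Hk1 at 44.9 FPKM and Hk2 at 34.8 FPKM. Ldha, lactate dehydrogenase A, stood at 1190 ± 20.5 FPKM against 0.0107 FPKM for Ldhb, Slc2a1, the glucose transporter GLUT1, held 99.4% of its family, and Aldoa 97.4% of the aldolases. The 3 phosphofructokinases were near equal, with Pfkp at 56.5, Pfkm at 56.4 and Pfkl at 54.2 FPKM. All 30 genes of oxidative phosphorylation were detected, median 206 FPKM, from Cox4i1, a subunit of cytochrome oxidase, at 1181 ± 37.2 FPKM to Ndufs4, of complex I, at 50.02 FPKM.

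Of 30 antioxidant and iron genes 29 were detected, median 108 FPKM. After ferritin came Prdx1, a peroxide-reducing enzyme, at 852, 855 and 926 FPKM, which held 55.4 ± 0.878% of the peroxiredoxins. Sod1, which converts superoxide, had 404 ± 6.45 FPKM, Tfrc, the transferrin receptor for iron uptake, 185 FPKM, Hmox1, the haem-degrading enzyme, 140 FPKM and the iron exporter Slc40a1 13.6 FPKM. Nfe2l2, which encodes NRF2, had 98.3 FPKM, while its target Nqo1 was the single member under 1 FPKM, at 0.606 FPKM.

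Lipid synthesis genes were detected in 22 of 25, median 30.4 FPKM. Scd2, a desaturase, had 595 ± 16.5 FPKM while Scd1 averaged 0.0232 FPKM, and Fdps, of the mevalonate pathway, had 441 ± 12.1 FPKM. Sqle, squalene epoxidase of cholesterol synthesis, had 97.6 ± 3.24 FPKM. For efflux and storage 15 of 16 genes were detected, including Abcg1 (49.6 FPKM) and Abca1 (35.9 FPKM), the cholesterol exporters, while the lipid-sensing receptor Pparg had 0.419 FPKM.

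The machinery for taking up and sorting vesicles was present in cells that had received none. Of 23 genes 19 were detected, median 33.7 FPKM. The clathrin chains Clta and Cltc had 320 ± 6.6 and 156 ± 3.53 FPKM, the late endosome GTPase Rab7 218 ± 7.16 FPKM, and Dnm2, the ubiquitous dynamin that cuts vesicles free, 45.6 FPKM, which was 98.7% of the dynamins. The flotillins Flot1 and Flot2 had 50.1 and 18.4 FPKM, whereas Cav1, the caveolar coat protein, was listed at 0. All 14 tetraspanins, membrane proteins also found on vesicles, were detected, with Cd81 at 67.2 ± 0.498 FPKM. Of the integrins 12 of 26 were detected (46.2%, near the 43.3% of all genes), led by Itgb1 at 92.0 ± 3.01 FPKM.

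All 24 cytoskeletal genes were detected, median 256 FPKM, with Actb at 2121 ± 46.0 FPKM, the intermediate filament gene Vim at 1764 ± 46.5 FPKM and the actin-severing cofilin Cfl1 at 1215 ± 10.2 FPKM. Matrix proteases were detected in 10 of 17, and Plau, the urokinase that activates plasmin, stood out at 168, 144 and 136 FPKM, while the gelatinase Mmp9 had 1.49 ± 0.00960 FPKM.

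Among chaperones and unfolded protein response genes 20 of 22 were detected, median 192 FPKM. The cytosolic chaperones Hsp90ab1 and Hspa8 had 2292 ± 46.8 and 1820 ± 63.2 FPKM. In the endoplasmic reticulum, Hspa5 (BiP) had 317, 328 and 370 FPKM, Calr, calreticulin, 653, 668 and 745 FPKM, and Hsp90b1 339, 329 and 381 FPKM. Replicate 3 was the highest library in each. Of the 18 members with at least 10 FPKM it was highest in 15, against 41.7% of the 6826 genes at that level. After each library was scaled by its median ratio to the geometric mean of each gene, it was again highest in 15, against 34.9%. Lists differed in this. After scaling, replicate 2 was highest in 9 of 12 long non-coding RNAs, against 31.9% of the 6826 genes. Replicate 1 was highest in 13 of 20 disease-associated genes, against 33.2%. These lists are examples, and the members of a list can vary together. For glycolysis, replicates 1, 2 and 3 were highest in 6, 8 and 8 of 22 genes. What else differed between the libraries was not tested. CCAAT letters were in 17 of 22 windows of this list (77.3%).

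Of 23 long non-coding RNAs 16 were detected, led by the nuclear RNAs Malat1 (192 ± 3.88 FPKM) and Neat1 (143 ± 5.79 FPKM). Xist, the RNA that coats the inactive X chromosome of female cells, had 51.8, 55.3 and 53.6 FPKM, whereas Tsix, its antisense, averaged 0.00956 FPKM, and the counting of these overlapping genes is not stated to use strand. The Y-linked genes Uty, Kdm5d, Eif2s3y and Ddx3y were listed at 0. Their X-linked partners were all detected, namely Eif2s3x (240 ± 6.63 FPKM), Ddx3x (180 ± 8.37 FPKM), Kdm5c (20.7 ± 0.740 FPKM) and Kdm6a (10.8 ± 0.216 FPKM).

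The 3 libraries were close to each other. Over the 10539 detected genes the median CV was 3.77%, and over the 6826 with at least 10 FPKM 3.17%. It fell with level, from 24.6% between 0.1 and 1 FPKM to 9.48% between 1 and 3 FPKM and 2.66% at or above 300 FPKM, while counting error alone was estimated at 19.9%, 7.18% and 0.534%. Between pairs of libraries, 27 to 36 genes differed by over 1.5-fold in FPKM + 1. That scale shrinks fold changes of genes near 1 FPKM, so fewer of them are counted than on FPKM itself. The variance between a pair was estimated at 3.65 to 4.18 times what counting gives. That estimate rests on the approximate depths and on the longest annotated transcript of each gene. Whether any 2 files came from the same library was not tested.

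**Figure D5:**
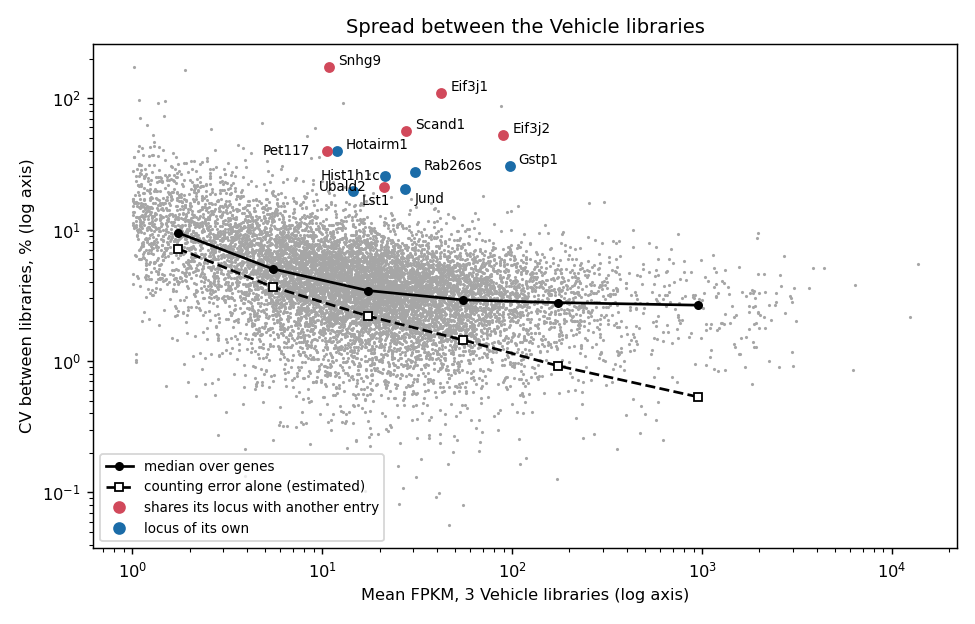
CV between the 3 Vehicle libraries (percent, log axis) against mean FPKM (log axis) for each detected gene, with the median by level and the estimated counting error. The median falls from 9.48% to 2.66%, and the 12 named genes with the largest CV at or above 10 FPKM stand between 19.8% and 173%, with 6 of them at a shared locus.

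Of the 6826 genes, 168 (2.46%) had a CV over 10%, and 476 a CV under 1%. The steadiest were Twf2, an actin-capping protein, at 46.35, 46.33 and 46.39 FPKM, Usp14, a deubiquitinase of the proteasome, Pigq, of membrane anchor synthesis, Nfx1, Tbl1x, and Tbp, the TATA-binding protein. At the other end, 6 of the 12 named genes with the largest CV shared a locus with another entry, against 21.1% of the 6826, and their median exon length was 790 bases against 3213. Eif3j1 and Eif3j2, near copies of a translation factor subunit, had 95.8, 14.9 and 15.9 FPKM and 35.5, 113 and 120 FPKM. Their sum was 131, 128 and 136 FPKM, a CV of 3.02%, while each copy alone had a CV of 110% and 52.4%.

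The other 6 had a locus of their own. Gstp1, a glutathione transferase, had 80.7, 78.6 and 131 FPKM, replicate 3 standing apart, and its copy Gstp2, also chosen after seeing its values, had at most 0.360 FPKM in any library. Hotairm1, an RNA from the HOXA cluster, had 15.8, 13.4 and 6.64 FPKM, and Jund, a subunit of the factor AP-1, 32.8, 27.5 and 21.6 FPKM, in both with replicate 3 lowest. Hist1h1c, a linker histone, had 21.6, 16.0 and 26.9 FPKM and Lst1, a leukocyte membrane protein, 12.2, 13.4 and 17.7 FPKM. Rab26os, an antisense RNA, had a CV of 27.5%. Of the entries at a shared locus, Snhg9, a short host RNA, was listed at 0, 32.4 and 0 FPKM and Scand1 at 44.6, 24.3 and 13.9 FPKM, and Pet117 and Ubald2 had CV of 39.7% and 20.9%.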

How the data were processed

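PolyA RNA was measured in 3 Vehicle libraries with a strand-keeping library kit, per the labels' protocols. The submitters' processing notes name TopHat2, Cuffdiff and the build mm9, with versions and annotation not given in the sources used here. The authors deposited FPKM values, 1 per gene and library, and the Vehicle columns were used as deposited, with no rescaling. The log2 fold changes, test scores, p-values and q-values that the authors deposited were not used; their Cuffdiff table gave only loci and status. Coordinates are mm9, with 1 added to listed starts.

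Means, SD and CV over 3 libraries were computed with pandas 2.3.3. No group was compared with another and no p-value was computed. The CV calculation was tested on simulated data. Depth was estimated from the steps between values under 0.05 FPKM in genes with at least 4000 nt of exons (GENCODE M21), since the files hold no counts. Promoter windows came from RefSeq tables of GRCm38.p6 and were matched by symbol.

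The 44 gene lists (920 genes, of which 4 were matched by synonym and 0 were unmatched) and the choice of libraries were made with earlier results of these data known. Genes named are the 20 highest, up to 6 highest and up to 4 lowest of each list, all members of the myeloid factor, Toll-like, purinergic, cathepsin, chemokine and sex-linked lists, and at 10 FPKM or more the 12 with the largest and 6 with the smallest CV. Clone-named genes were passed over, some genes under this rule are not reported here, and some further list members are named for their role, chosen after their values were seen. Alternatives covered thresholds, scale, entries, the second deposited table and single libraries.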

Additional observations from a re-analysis of the deposited data

How the results depend on the processing

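No paired analysis was possible because no groups were compared. Detected genes numbered 8269 to 11060 under the alternatives, 11060 at 0.5 FPKM, 8607 at 5 FPKM, 10916 after rescaling to a common sum (factors of 1.60 to 1.63), 10540 in the second table, and 8269 without entries at a shared locus, chosen after seeing the data. Leaving out each library gave 10536 to 10550. At 5 FPKM, detected members fell to 6 homeostatic, 3 tissue macrophage and monocyte, 3 neuronal, 1 oligodendrocyte and 2 HOXA genes. They also fell to 4 purinergic, 2 chemoattractant receptor, 5 chemokine and 7 interferon response genes. Astrocyte genes numbered 2 at 0.5 FPKM and 2 after rescaling. Counts of the other lists stayed within 1.5 times, and no list's count moved beyond that without a library.

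The share of the highest genes was 23.7% for 50 and 34.4% for 100 genes, 6.70% without entries that name several genes or failed (Fth1 and Ftl1 among them) and 8.06% without shared-locus or failed entries. The median CV was 3.17% from 10 FPKM and 5.32% for any mean above 0, and 3.01% to 3.24% without 1 library, since 2 libraries give a smaller median CV. As an SD of log2 values it was 0.05005 (pseudocount 1) and 0.054 (pseudocount 0.1). Of 132 list medians without 1 library, 127 lay within 1 SD of the main median. Leaving out 1 of 3 values can hardly move a mean by 1 SD, so that count says little about single libraries. A listed 0 may be a failed estimate, estimated depth limits values under about 0.0479 FPKM, and 3 libraries limit every SD.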

Other observations

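Fetal and imprinted genes, not described above, were detected in 11 of 25 (44%, near the 43.3% of all genes). Hmga1, a chromatin protein of proliferating and embryonic cells, had 296, 282 and 303 FPKM, and its relative Hmga2 10.7 ± 0.186 FPKM. The fetal RNA-binding proteins Igf2bp2 and Igf2bp3 had 41.1 ± 1.02 and 27.6 ± 0.645 FPKM, whereas Igf2bp1 averaged 0.00115 FPKM. Lin28b, which blocks maturation of let-7 microRNAs, had 2.34 FPKM against 0.00315 FPKM for Lin28a. Of imprinted genes, Igf2r had 35.9 ± 0.418 FPKM and Peg10 28.5, 31.5 and 32.8 FPKM, while H19, Igf2, Dlk1, Meg3, Peg3, Snrpn and Ndn were listed at 0.

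By chromosome, 44.2% of 23159 autosomal and 28.8% of 1053 X-linked genes were detected. The median level of detected genes was 16.0 FPKM on the autosomes together and 17.1 FPKM on the X. Single autosomes had medians from 13.6 to 23.0 FPKM, the highest being chromosome 15, followed by chromosome 19 at 20.6 FPKM. These are descriptions of 1 cell line, and the content of each chromosome was not accounted for.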
